A study of Mus musculus with 4 samples.

Results

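Enah, its paralogs Vasp and Evl, and 4 genes whose products work with them on actin filaments (Zyx, Pfn1, Diaph1 and Apbb1ip) were followed in wild-type (WT) and Batf3-/- mouse T cells. The 7 genes were chosen by name, with Enah placed at their head because it was among the transcripts that differed between the genotypes. All 7 of 7 were found among the 25509 genes of the count table, Diaph1 under its older symbol Diap1 and matched by identifier, and all 7 passed the filter on low counts that left 12135 genes. Splenic CD4+ T cells with a naive surface phenotype (CD62L high, CD44 low and CD25-) had been sorted and then cultured with CD3 and CD28 antibodies, IL-4, TL1A and TGFb for 72 h, stimuli under which interleukin 9-secreting TH9 cells form. There were 2 WT and 2 Batf3-/- libraries of polyadenylated RNA, and every culture of both genotypes received the same stimuli. Batf3-/- cells lack BATF3, a DNA-binding protein of the BATF family that pairs with JUN proteins. The labels give neither the deleted exons, the strain, the sex nor the age of the mice, and do not say whether replicates came from separate animals or cultures, so errors measure only the spread between these samples.

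Ena/VASP proteins bind the fast-growing end of actin filaments, take up actin bound to profilin and lengthen filaments while slowing their capping. Their EVH1 domain docks on proline-rich ligands such as zyxin and RIAM (the product of Apbb1ip), and their EVH2 domain binds actin and forms tetramers. In T cells, EVL and VASP act where the T cell receptor and integrins are coupled to the actin network. Enah encodes Mena, the family member best known from neurons, fibroblasts and epithelial cells.

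Enah RNA was lower in Batf3-/- cells, at 28.3% of the WT level, while neither paralog was lower. Vasp stood at 149% and Evl at 119% of WT, and the 4 partners at 97.0% to 116%. In bulk RNA, fewer cells that express a gene and less RNA per cell cannot be told apart. Since Enah was picked from this comparison of genotypes, the values of the 7 genes are given as a description and without a test.

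The promoters of the 3 paralogs and of Zyx are shown because they differ in base composition and in matches to the AP-1 motif, the kind of site that BATF-family dimers bind. Each is the 250 bases before the transcription start in RefSeq (GRCm38.p6), read 5′ to 3′ on the gene's own strand. Capitals mark the GC box (GGGCGG, either strand) in Enah and Evl and the AP-1 match in Zyx. Zyx also held 2 GC boxes, which are left in lower case. Evl has a second RefSeq start, and the one with the higher GC content is shown.
Enah, chr1:182019981-182020230, minus strand: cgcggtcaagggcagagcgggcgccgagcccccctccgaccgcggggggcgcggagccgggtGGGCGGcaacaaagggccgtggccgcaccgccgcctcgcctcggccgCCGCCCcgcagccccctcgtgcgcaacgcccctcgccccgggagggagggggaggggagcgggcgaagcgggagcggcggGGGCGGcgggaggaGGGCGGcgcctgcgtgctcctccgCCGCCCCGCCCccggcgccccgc
Vasp, chr7:19271855-19272104, minus strand: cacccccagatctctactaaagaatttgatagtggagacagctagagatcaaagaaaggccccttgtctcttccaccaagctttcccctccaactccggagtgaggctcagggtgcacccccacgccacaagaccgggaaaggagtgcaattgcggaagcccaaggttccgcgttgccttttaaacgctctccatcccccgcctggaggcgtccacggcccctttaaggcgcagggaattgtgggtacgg
Evl, chr12:108554470-108554719, plus strand: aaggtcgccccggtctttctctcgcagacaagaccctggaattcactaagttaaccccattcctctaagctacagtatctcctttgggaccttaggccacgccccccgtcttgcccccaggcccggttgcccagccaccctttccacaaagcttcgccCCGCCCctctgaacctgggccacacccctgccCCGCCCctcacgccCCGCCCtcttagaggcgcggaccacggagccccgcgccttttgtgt
Zyx, chr6:42349578-42349827, plus strand: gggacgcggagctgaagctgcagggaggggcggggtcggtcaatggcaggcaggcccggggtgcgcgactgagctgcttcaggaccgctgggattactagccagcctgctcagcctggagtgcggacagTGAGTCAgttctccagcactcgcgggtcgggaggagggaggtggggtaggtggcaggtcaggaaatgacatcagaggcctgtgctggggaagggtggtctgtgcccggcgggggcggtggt

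The Enah promoter was 84.8% G and C, higher than or equal to 99.9% of 32851 promoter windows, against 57.2% for Vasp, 64.0% for the Evl start shown and a median of 52.4%. The second Evl start, which is not shown, was 49.2% G and C and held 0 GC boxes. The Enah promoter held 6 GC boxes, and the pair nearest to its start overlaps. Both strands were searched for the AP-1 site (TGAGTCA or TGACTCA), the cyclic AMP response element (TGACGTCA), and the CArG box, the site of the serum response factor that is known to control many actin genes. Windows were read for 6 genes, and none was read for Diaph1. Of these 6, Zyx held an AP-1 match, 115 to 121 bases before its start, and none of the other windows did. The AP-1 site was present in 4.46%, the cyclic AMP response element in 1.55%, the CArG box in 1.47% and the GC box in 32.7% of all windows. No window of these 6 genes held a cyclic AMP response element or a CArG box. These are matches of letters and say nothing of binding, and sites farther away were not searched.

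The libraries differed in depth, and those numbered 1 differed from those numbered 2 in RNA from the sex chromosomes. Counts per library ran from 15624874 to 31098059. Xist, the RNA of the inactive X chromosome, was at 0.0944 to 0.214 CPM (counts scaled to a common library size) in both libraries numbered 1 and at 144 to 166 CPM in both numbered 2. The 4 Y-linked genes read summed to 344 and 243 CPM in WT and Batf3-/- replicate 1 and to 146 and 182 CPM in WT and Batf3-/- replicate 2, so that the libraries numbered 2 held both Xist and Y-linked RNA. The ratio between genotypes inside a replicate number therefore accompanies the fitted values of Enah, its paralogs and their partners. For most other genes only the fitted value is given. The median log2 ratio of all tested genes was -0.01 in replicate 1 and 0.01 in replicate 2. Batf3 itself had 61.7 and 60.5 CPM in the WT libraries, and 0.535 and 0.517 CPM were left in those labelled Batf3-/-. T cell markers (Cd3e, Cd4 and 5 others) summed to 1990 to 2320 CPM, and the CD8 markers Cd8a and Cd8b1 to 7.30 to 9.08 CPM.

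Enah (ENSMUSG00000022995.16, a protein-coding gene at GRCm38 chromosome 1, 181896384 to 182019990) was covered by 1216 and 1466 counts in WT replicates 1 and 2, and by 391 and 272 counts in the Batf3-/- ones. Scaled to depth these were 52.1 and 53.4 CPM in WT and 12.3 and 17.6 CPM in Batf3-/- libraries. The WT libraries lay close together and both Batf3-/- libraries lay far below them. The mean was 3.53-fold lower, at 14.9 ± 3.73 CPM in Batf3-/- against 52.8 ± 0.925 CPM in WT cells (SD, n = 2 each). The log2 fold change was -1.83 (SE 0.221), with log2 ratios of -2.08 within replicate 1 and -1.60 within replicate 2. Ranked from the most negative, its log2 fold change was number 16 of 12135. Enah was the 1 of 7 genes past an adjusted p of 0.05 in edgeR's quasi-likelihood test, a threshold that 0.132% of tested genes passed, and since that call led to its choice nothing is read from the count.

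Vasp (ENSMUSG00000030403.9, chromosome 7, 19256929 to 19271817), the founding member of the family and a substrate of cyclic nucleotide-dependent kinases, had 2196 and 3481 counts in WT and 5126 and 2611 counts in Batf3-/- replicates 1 and 2. These were 94.1 and 127 CPM in WT and 161 and 169 CPM in Batf3-/- libraries. Both Batf3-/- libraries were above both WT libraries, and WT replicate 1 was the lowest. The log2 fold change was 0.58 (SE 0.196), with 0.78 within replicate 1 and 0.41 within replicate 2. It was 0.37 without WT replicate 1, 0.81 without WT replicate 2 and 0.34 after a correction for the GC content of transcripts.

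Evl (ENSMUSG00000021262.14, chromosome 12, 108554720 to 108688516), the paralog best known from blood cells, stood at 73.9 and 74.9 CPM in WT and at 90.7 and 86.2 CPM in Batf3-/- replicates 1 and 2. Between genotypes there was no overlap and the shift was small, with a log2 fold change of 0.25 (SE 0.182) and log2 ratios of 0.29 and 0.20 within replicates 1 and 2. Its sign turned after the GC correction, to -0.13. The Evl transcript was 61.0% G and C, against a median of 49.8% for tested genes, 58.0% for Vasp and 44.2% for Enah, whose log2 fold change was -1.71 after the same correction. Evl counts were fractional (2882.31 in Batf3-/- replicate 1, for example), which marks reads divided between genes, and its exons overlap those of Degs2 on the opposite strand by 278 bases. Its level is uncertain to that extent, since the strand setting of the counting is not given in the sources used here.

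Of the 7 genes, 3 had libraries that did not overlap between genotypes, Enah lower and Vasp and Evl higher. Among all tested genes 33.8% were separated in this way, 15.6% lower and 18.2% higher.

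**Figure D1:**
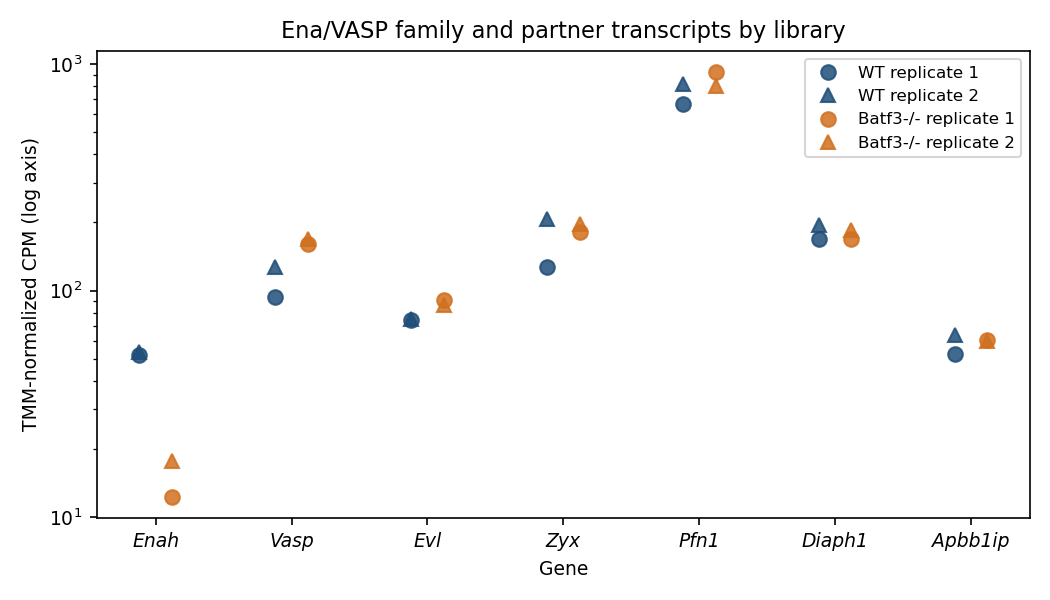
Depth-normalized level (CPM, log axis) of each of the 7 genes in each library; circles are replicate 1 and triangles replicate 2, blue WT and orange Batf3-/-. Enah falls from 52.1 and 53.4 CPM in WT to 12.3 and 17.6 CPM in Batf3-/- libraries, while the 4 points of every other gene lie within a much narrower span.

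To compare levels between genes, counts were divided by the length of each gene's longest annotated transcript and scaled within each library to TPM, the usual length-corrected unit of transcript abundance. On this scale Enah was the least abundant of the 7 in both genotypes, at 10.01 and 11.07 TPM in WT and 2.47 and 3.51 TPM in Batf3-/- libraries. Pfn1 led at 838 ± 168 TPM in WT, followed by Zyx at 118 ± 46.0 and Vasp at 112 ± 29.5, which overlapped between libraries. Evl at 76.6 ± 4.83 and Diaph1 at 71.4 ± 11.2 TPM overlapped as well, and Apbb1ip stood apart at 32.1 ± 6.03 TPM (SD, n = 2 throughout). In Batf3-/- cells Vasp, at 167 ± 4.50 TPM, was above Zyx, at 134 ± 6.93 TPM, and no neighbours in the order overlapped. The longest Enah transcript has 11229 bases, against 2215 for Vasp and 2180 for Evl. With the median length of coding transcripts, 2889 bases for Enah, Enah stood at 23.5 and 25.6 TPM in WT and overlapped Apbb1ip at 24.7 and 31.7 TPM, but in Batf3-/- cells it was again lowest, at 5.81 and 8.09 TPM.

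Enah made up 5.73% and 4.94% of the length-scaled RNA of the 3 paralogs in WT replicates 1 and 2, and 0.948% and 1.33% in Batf3-/- replicates 1 and 2. Both Batf3-/- shares were below both WT shares. The share changed by -4.19 percentage points on average, from 5.33% ± 0.559 to 1.14% ± 0.273 (SD, n = 2 each). Scaled by the longest transcript, the ratio of Vasp to Enah was 9.16 and 12.04 in WT replicates 1 and 2. It was 66.5 and 48.7 in Batf3-/- replicates 1 and 2. For Evl the ratios were 7.31 and 7.22 in WT and 38.0 and 25.3 in Batf3-/- libraries. Vasp was the major paralog in all 4 libraries, at 55.9% ± 4.95 of the family in WT and 64.0% ± 1.35 in Batf3-/- cells. Evl made up 38.8% ± 4.39 in WT and 34.9% ± 1.62 in Batf3-/- cells, with overlap between genotypes, and 36.5% ± 3.47 and 36.7% ± 1.90 with the median coding length. The 3 paralogs together summed to 175 and 224 TPM in WT and to 261 and 263 TPM in Batf3-/- libraries, so that the family total was not lower where Enah was. The size of the Enah share depended on the length used: with the median coding length it was 17.1% ± 1.48 in WT and 4.10% ± 0.960 in Batf3-/- cells. The ratios of Vasp and Evl to Enah depended on it too. With the median coding length Vasp stood at 55.4 and 79.3 TPM in WT, against 23.5 and 25.6 TPM for Enah. In Batf3-/- libraries these were 99.3 and 101 TPM against 5.81 and 8.09 TPM.

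**Figure D2:**
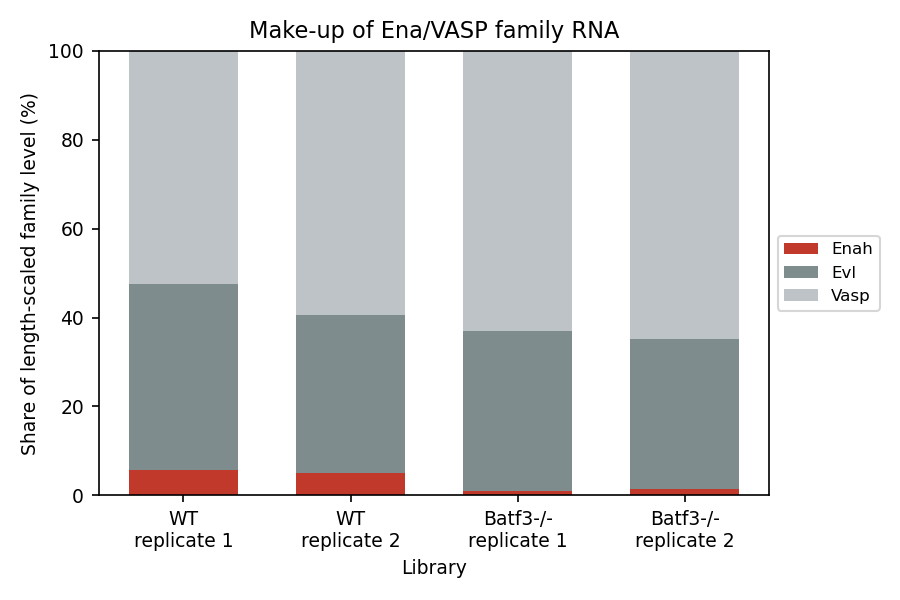
Stacked bars give the percentage of the length-scaled RNA of the Ena/VASP family contributed by Enah (red), Evl (dark grey) and Vasp (light grey) in each of the 4 libraries. The Enah layer is 5.73% and 4.94% in WT and 0.948% and 1.33% in Batf3-/- libraries. Vasp is the largest layer in each library.

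The ligands that dock Ena/VASP proteins did not share the lower level of Enah. Zyx (chromosome 6, 42349630 to 42360213) encodes zyxin, a LIM protein of focal adhesions and stress fibres. It stood at 127 and 206 CPM in WT and 182 and 197 CPM in Batf3-/- replicates 1 and 2. WT replicate 1 was low and WT replicate 2 was the highest of the 4, so the genotypes overlapped. The log2 fold change was 0.19 (SE 0.217), made of 0.52 within replicate 1 and -0.06 within replicate 2. It was -0.13 without WT replicate 1, 0.58 without WT replicate 2 and 0.01 after the GC correction. Zyx counts were fractional, and its exons overlap Epha1 on the opposite strand by 236 bases.

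Apbb1ip (chromosome 2, 22774094 to 22875653) encodes RIAM, which links the GTPase RAP1 to talin, integrins and Ena/VASP proteins. Its levels of 52.5 and 63.5 CPM in WT enclosed the 60.7 and 60.0 CPM of the Batf3-/- libraries. The log2 fold change was 0.06 (SE 0.191), with 0.21 and -0.08 within replicates 1 and 2, 0.20 without WT replicate 2, -0.08 without WT replicate 1 and 0.23 after the GC correction.

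The partners that supply or polymerise actin were likewise spread around WT. Pfn1 (chromosome 11, 70651850 to 70654644), profilin 1, which delivers actin monomers to Ena/VASP proteins and formins, stood at 666 and 821 CPM in WT and 925 and 800 CPM in Batf3-/- replicates 1 and 2. WT and Batf3-/- overlapped, at a log2 fold change of 0.21 (SE 0.201) that split into 0.47 within replicate 1 and -0.04 within replicate 2. It was 0.06 without WT replicate 1, 0.37 without WT replicate 2, 0.11 without Batf3-/- replicate 1 and -0.07 after the GC correction. Diaph1, a formin that nucleates and lengthens unbranched filaments, stood at 169 and 196 CPM in WT and 168 and 185 CPM in Batf3-/- libraries (log2 fold change -0.04, SE 0.188). Its 2 within-replicate ratios, -0.01 and -0.08, were the closest to 0 as a pair among the 7 genes.

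**Figure D3:**
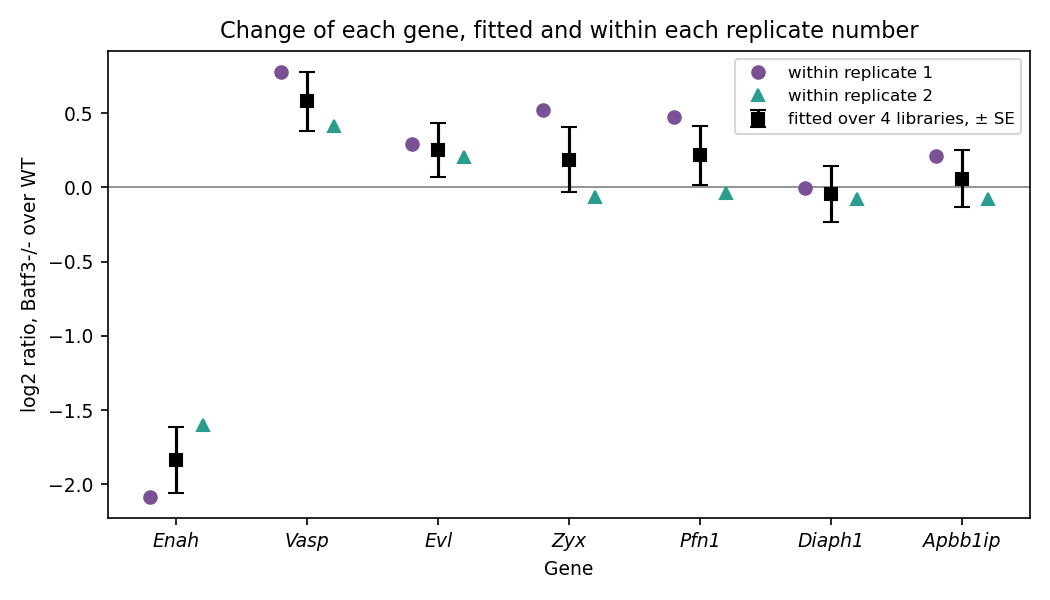
Log2 ratio of Batf3-/- over WT for each gene: black squares with bars are the value fitted over 4 libraries ± its standard error, circles and triangles the ratios within replicates 1 and 2. Enah lies at -1.83 with both replicate ratios far below 0, Vasp and Evl lie above 0 in both, and Zyx, Pfn1 and Apbb1ip change sign between replicates.

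**Figure D4:**
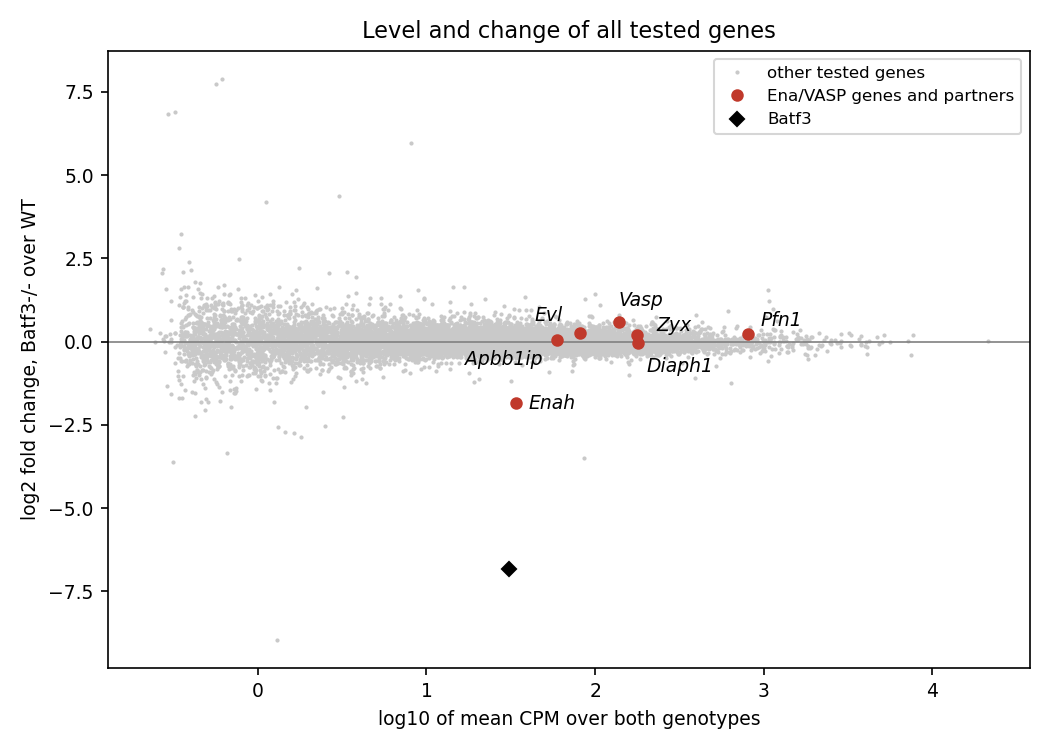
Log2 fold change (Batf3-/- over WT) of 12135 tested genes against log10 of the mean CPM, with the 7 genes in red and Batf3 as a black diamond. Enah sits well below the band of genes at its level, and its 6 relatives and partners lie inside the band.

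The wider actin machinery was read from 11 lists holding 113 other genes, of which 104 were tested. None passed edgeR's quasi-likelihood test after Benjamini-Hochberg adjustment over all genes, and none passed in DESeq2 or limma-voom, where 0.132%, 0.239% and 0.124% of tested genes passed. At an unadjusted p under 0.05 in edgeR there were 3 higher and 1 lower, beside 3.4% higher, 1.4% lower and 4.8% either way among all tested genes. The log2 fold changes were positive for 45 and negative for 59, beside 48.4% positive among all tested genes. The median of the 104 was -0.04, beside -0.01 for all tested genes. The lowest was -0.79, for the actin bundler Pls3 at 2.33 ± 0.931 and 1.42 ± 0.365 CPM in WT and Batf3-/- libraries. The highest was 1.22, for the formin Daam2 at 0.220 ± 0.0530 and 0.527 ± 0.0777 CPM, a level where counting error is large. Enah lay below each of the 104, but its choice from this comparison made that likely, and nothing is read from it.

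Of the 4 genes with an unadjusted p under 0.05 in edgeR, Tmsb10, Coro1a and Prkacb are described here. Tmsb10, thymosin beta 10, which holds actin as monomers, stood at 839 and 1052 CPM in WT and at 1486 and 1431 CPM in Batf3-/- replicates 1 and 2 (log2 fold change 0.63, SE 0.203, adjusted p = 0.658 in edgeR). Its paralog Tmsb4x was at 5372 and 3943 CPM in WT and 3486 and 3690 CPM in Batf3-/- libraries (log2 fold change -0.38). Coro1a, a coronin of leukocytes that acts with the Arp2/3 complex, was at 587 and 586 CPM in WT and 770 and 790 CPM in Batf3-/- libraries (log2 fold change 0.41, SE 0.191, adjusted p = 0.958 in edgeR). Prkacb, a catalytic subunit of protein kinase A, the kinase that phosphorylates VASP and Mena, was at 188 and 170 against 105 and 154 CPM (log2 fold change -0.47, with -0.84 and -0.14 within replicates 1 and 2).

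Among other ligands of Ena/VASP proteins, 3 of 8 members were positive (median log2 fold change -0.09), with the zyxin relative Lpp at -0.33 and the WAVE complex subunit Abi1 at -0.20. Formins had 5 of 9 tested members positive (median 0.10), with Diaph2 at -0.38 and Fhod1 at 0.37. Capping genes had 2 of 7 positive (median -0.26), with Carmil2 at 0.40 and Capza2 at -0.27, and the Arp2/3 complex, which makes branched networks, had 2 of 9 positive (median -0.04), with Arpc1b at 0.27 and Actr3 at -0.24. The WASP and WAVE activators had 9 of 17 positive (median 0.00) with Nckap1 at -0.31, and RAP1 signalling genes 4 of 12 (median -0.09) with Sipa1 at 0.34 and Rasgrp1 at -0.30. Monomer binding and turnover genes had 4 of 12 positive (median -0.13), actins and cross-linkers 6 of 9 (median 0.01) and focal adhesion adaptors 5 of 7 (median 0.06), among them Fscn1 at 0.43, Pxn at 0.23 and Lims1 at -0.18. The kinases had 3 of 5 positive (median 0.02), with Abl1 at 0.14. The values of Tmsb10, Tmsb4x and the filament-severing gene Cfl1 moved with the choice of WT library. With WT replicate 1 as the lone WT library, they stood at log2 fold changes of 0.80, -0.58 and 0.52. With WT replicate 2 as the lone WT library, they stood at 0.46, -0.15 and 0.00.

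**Figure D5:**
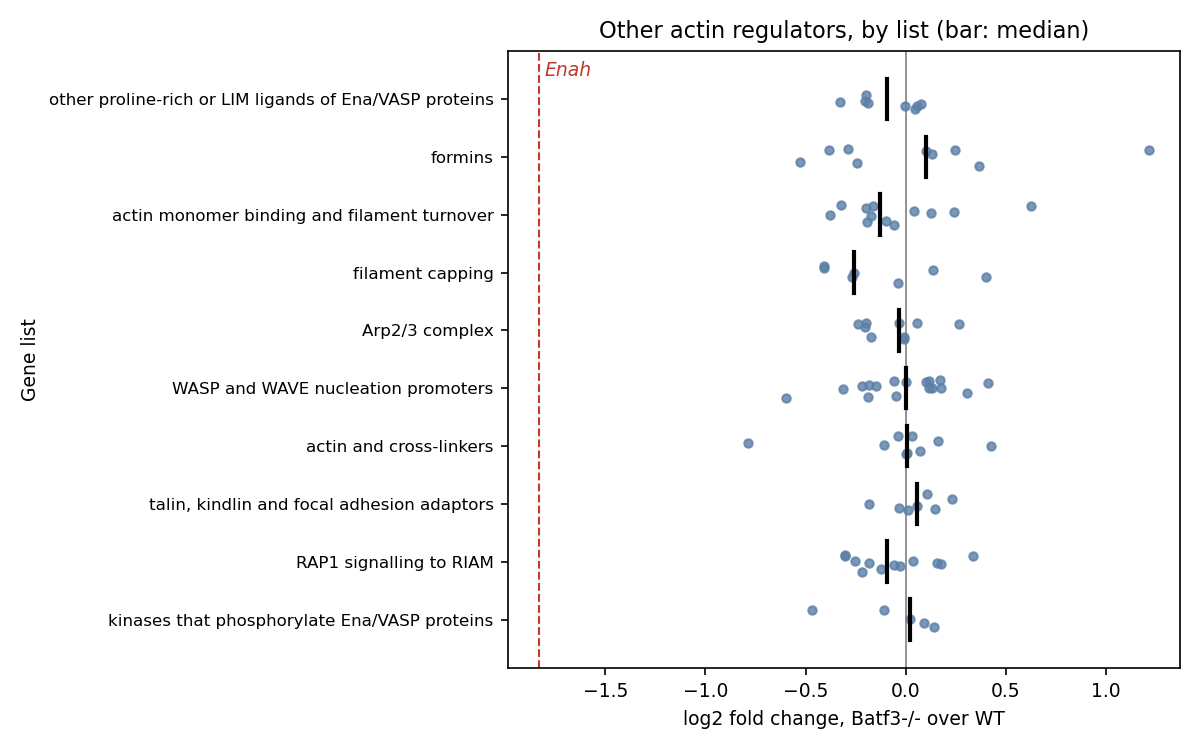
Each point is the log2 fold change (Batf3-/- over WT) of a tested gene in one of 10 of the lists of actin regulators, with a black bar at the list median and a dashed red line at Enah. The medians lie between -0.26 and 0.10 and no point reaches the line at -1.83 of Enah, which was chosen from this comparison.

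Enah was the 1 gene of the 7 on the chromosome of Batf3, with 9.08 Mb between the genes, and no other member shares a chromosome with it. Of the 14 tested genes within 1 Mb of Enah, none passed edgeR's adjusted threshold and none had an unadjusted p under 0.05; none passed in DESeq2 or limma-voom. Their log2 fold changes ran from -0.44 to 0.44 (median -0.11). Of the 14, 10 were negative and 4 positive, beside 48.4% positive among all tested genes. Libraries did not overlap for 5 of the 14, beside 33.8% of all tested genes. On the proximal side Lbr, the lamin B receptor, 53.3 kb away, stood at -0.11, Cnih3 at 0.01 and Wdr26 at -0.14. On the distal side Srp9, a protein of the signal recognition particle, 104.7 kb away, stood at -0.29, the sphingolipid desaturase gene Degs1 at -0.15 and the F-box gene Fbxo28 at -0.25. Each of these 14 genes lay closer to 0 than Enah, which was itself chosen for its difference between the genotypes.

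Markers of other cell types that are rich in Ena/VASP proteins were low in all 4 libraries. The 6 fibroblast markers (Col1a1, Pdgfra, Dcn and others) summed to 1.37 and 1.68 CPM in WT and 1.79 and 2.20 CPM in Batf3-/- libraries. Dcn was at 0 counts throughout, while Col1a1 and Pdgfrb were present in all 4 libraries. The 4 epithelial markers summed to 3.97 to 4.16 CPM in WT and 3.27 to 4.72 CPM in Batf3-/- libraries. Krt8 was at 0 counts, while Krt18, Epcam and Cdh1 were present in all 4 libraries. The 5 markers of platelets and megakaryocytes summed to 1.60 to 1.71 CPM in WT and 2.20 to 2.65 CPM in Batf3-/- libraries. Gp9 was at 0 counts, while Itga2b and Gp1ba were present in all 4 libraries. The 4 endothelial markers summed to 23.7 to 25.4 CPM in WT and 22.1 to 23.7 CPM in Batf3-/- libraries, nearly all from Pecam1, which lymphocytes also express, with Cdh5 at 0 counts. The myeloid markers summed to 0.605 to 1.34 CPM, with Lyz2 at 0 counts and Itgax present in all 4 libraries. The NK cell and mast cell markers had 0 counts. A count of 0 allows up to 0.0965 to 0.192 CPM, depending on the library and for counting error only. None of the markers with enough counts to be tested passed in edgeR, and their part in the level of Enah was not tested.

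Predicted genes (Gm and Rik names) and pseudogenes were passed over in the search for genes with a pattern like that of Enah. The most alike of the genes left were weakly expressed. Likeness was measured as the Euclidean distance between log2 CPM values centred on each gene's mean over the 4 libraries, where a gene with no change would lie at 1.88 from Enah. The closest of the genes left was Ppp4r4, a regulatory subunit of protein phosphatase 4, at a distance of 0.214. Its level was 1.92 ± 0.136 CPM in WT against 0.576 ± 0.191 CPM in Batf3-/- cells. Ccdc39, Prg4, Actn3 and Cfap74 followed at 0.536 to 0.647. All 5 were expressed at 0.552 to 1.92 CPM in WT, where counting error is large, against 52.8 CPM for Enah.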

How the data were processed

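RNA sequencing of 4 libraries (2 WT, 2 Batf3-/-) was read from the deposited table of RSEM expected counts, which the authors made with STAR 2.5.0 and RSEM 1.2.25 on GRCm38, per the submitters' processing notes; annotation release and strand setting: not given in the sources used here. The 92 spike-in entries were 0 and left out. Expected counts were rounded, filtered with filterByExpr (minimum count 10) and tested with edgeR 4.0.16 under R 4.3.3 (TMM, quasi-likelihood test, two-sided, genotype as the term, Benjamini-Hochberg over 12135 genes). CPM values are TMM-normalized, and per-replicate log2 ratios use a prior count of 0.5. Lengths, positions and transcript GC came from GENCODE M21 (GRCm38), matched by identifier, with GC for 12105 tested genes. Other settings were DESeq2 size factors, DESeq2 1.42.0, upper-quartile scaling, 2 other filters, limma-voom (limma 3.58.1), a replicate block, a GC correction, 3 other length scalings and leaving out each library. The pipeline was tested on simulated counts. From each actin list the members past the threshold, or the 2 with the smallest p, were named. So were the 3 nearest tested neighbours of Enah on each side and its 5 most alike genes. Pls3, Daam2, Tmsb4x, Cfl1, Coro1a and Prkacb were also picked out by value. The results of 1 actin list and 1 marker list are not reported here. Members and lists were chosen with earlier results of these data known.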

Additional observations from a re-analysis of the deposited data

How the results depend on the processing

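The log2 fold change of Enah was negative in each of 13 other settings, which is a description because Enah was chosen from this comparison; it ran from -2.10 to -1.59 when 1 library was left out and was -1.71 with the GC correction. Vasp was positive in all 13 (0.34 to 0.81). The signs of Evl, Zyx, Pfn1, Diaph1 and Apbb1ip each turned in 1 or 2 of the 13. The change in the Enah share was -4.19 percentage points with the longest transcript, -2.80 with the union of exons, -13.0 with the median coding length and -16.7 with no length scaling, and -4.58 to -3.79 with 1 library left out.

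Over all genes the counts of 10 higher and 6 lower became 21 and 8 in DESeq2. With 1 library left out they ran from 11 to 301 higher and 7 to 252 lower, and for the 104 other actin genes from 0 to 2 higher and 0 to 1 lower. The cause was not tested, and a lone library was assumed to vary like the other group. With the replicate number as a block, 81 genes were higher and 31 lower, 55 and 33 with the GC correction added, and Enah stood at -1.84; that fit took the spread of most genes as known. Deviations of libraries with the same number correlated at 0.108 over genes, and these libraries share a title prefix and their Xist level. The labels do not say what the prefix or the number stands for. No call on the actin lists changed under the block. Depth limits genes near 1 CPM, such as those most like Enah.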
